A study of Mus musculus with 12 samples.

Results

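Sirt3 deletion was examined on its own, without amyloid transgenes, in 6 of the 12 RNA-seq libraries of the series: 3 from WT mice and 3 from global Sirt3-/- mice, chosen by the genotype in the library labels. All 6 are labelled as brain cortex of female mice aged 8 months, and the replicate numbers are 1, 2 and 4 in both groups. The series describes WT as C57/BL6. For the knockout, the study's methods name mice of the C57BL/6 background and of another inbred background, and do not say which gave these libraries, so strain and genotype cannot be told apart. The knockout is global, so every cell type and organ lacked the gene throughout life. Whether each library came from 1 animal is not stated either, so the p-values measure the spread between these libraries. The question addressed here was how loss of Sirt3 alone shifted gene classes and pathways of the cortex.

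SIRT3 is an NAD-dependent deacetylase of the mitochondrial matrix. It removes acetyl groups from metabolic and antioxidant enzymes, among them isocitrate dehydrogenase, superoxide dismutase and subunits of the respiratory chain, and it acts on proteins after translation, so its targets need not change at the RNA level. Mice without it are used as a model of metabolic syndrome.

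Reads counted in genes ranged from 15310104 to 17918122 in WT and from 16078188 to 16722481 in Sirt3-/-. Pearson's r of log2(FPKM + 1) between libraries was 0.9944 to 0.9948 within WT, 0.9901 to 0.9947 within Sirt3-/- and 0.9879 to 0.9943 between the groups. Replicate 4 of each group went against its sex label. It held Y-linked reads (Ddx3y at 32.5 CPM in WT and 31.9 CPM in Sirt3-/-, CPM being read counts relative to the TMM-scaled library size) and almost no Xist (0.502 and 3.32 CPM), while the other 4 libraries had 533 to 666 CPM of Xist and no Ddx3y reads. Each group thus had 1 such library. Results were computed again with sex read from these genes as a covariate and with the 4 Xist libraries alone.

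The targeted gene checked the labels. Sirt3 (ENSMUSG00000025486, protein-coding, GRCm38 chromosome 7 from 140863670 to 140882309, minus strand) was at 60.2, 62.9 and 63.8 CPM in WT replicates 1, 2 and 4, and at 0.184, 0.460 and 0.438 CPM in Sirt3-/-. The WT libraries held 3037 Sirt3 reads in all and the Sirt3-/- libraries 18, a ratio of 172 with an exact 95% counting interval from 108 to 290. The log2 fold change was -7.40 (SE 0.17, adjusted p = 6.2e-08 from edgeR's quasi-likelihood test with Benjamini-Hochberg adjustment over 15978 genes). No other sirtuin passed the test: among the 7 members, the other 6 had log2 fold changes between -0.14 for Sirt4 and 0.16 for Sirt1. The genes next to Sirt3 did not pass either. Psmd13, a proteasome subunit gene that overlaps Sirt3 on the opposite strand, was at 73.2, 75.8 and 75.8 CPM in WT and 79.2, 75.8 and 85.0 CPM in Sirt3-/- (log2 fold change 0.10, adjusted p = 0.633 from edgeR). Ric8, which also overlaps it, was at 63.4 ± 0.150 and 69.1 ± 8.22 CPM (SD, n = 3, as in all values given with ± here, adjusted p = 0.636).

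**Figure D1:**
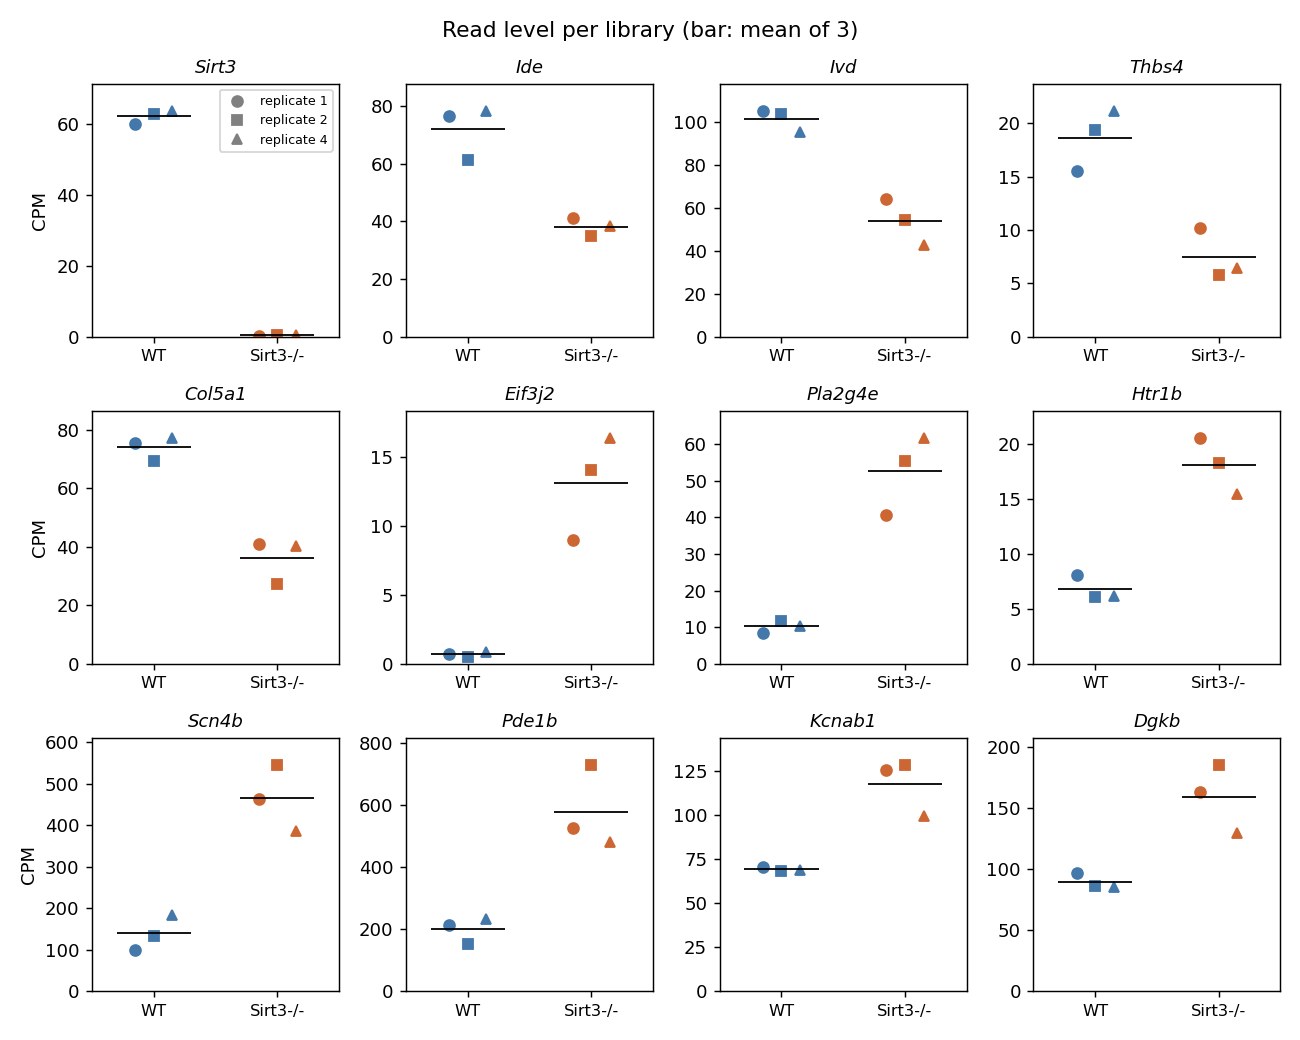
Levels in CPM (y axis, from 0) of 12 genes in each of the 3 WT (blue) and 3 Sirt3-/- (orange) libraries, with the marker shape giving the replicate number and the bar the mean. Sirt3 was near 0 in all 3 Sirt3-/- libraries, and in each of the 12 panels the groups do not overlap.

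Of 35275 genes in the table, 15978 had enough reads to be tested. With the adjusted p under 0.05, 113 genes passed (0.707% of those tested): 93 rose (0.582%) and 20 fell (0.125%). A further reading without adjustment gave 1859 genes with p under 0.05. The median log2 fold change over all tested genes was -0.0016, and 7942 of them were above 0. Of the rises, 21 were at least 4-fold, 29 were 2- to 4-fold and 43 were under 2-fold. Of the falls, Sirt3 and Bub1b were at least 4-fold, 8 were 2- to 4-fold and 10 were under 2-fold. Protein-coding genes made up 109 of the 113. Of the 501 lincRNA genes tested, 0 passed in edgeR, 33 had an unadjusted p under 0.05 and 4 passed in DESeq2.

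The number of calls depended on single libraries. Without WT replicate 1 only 9 genes passed, without WT replicate 2 there were 13, and without WT replicate 4 there were 22. Without Sirt3-/- replicate 1, 2 or 4 the counts were 122, 165 and 55. Of the 113, 9, 12 and 21 were called without WT replicate 1, 2 and 4, and 69, 102 and 51 without Sirt3-/- replicate 1, 2 and 4, each in the same direction. Sirt3, Eif3j2, Gm3650, Pla2g4e, Pcna-ps2 and Cacng4 were called in all 6 of these fits, and the other 107 lost their call in at least 1 of them. With sex from reads as a covariate 33 genes passed, all among the 113, and in the 4 Xist libraries 12 passed, again all among the 113. Sirt3-/- replicate 2 stood at the end of the range for most calls: it was the highest library for 76 of the 93 rises and the lowest for 12 of the 20 falls. WT replicate 2 was the lowest library for 56 of the 93 rises.

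**Figure D2:**
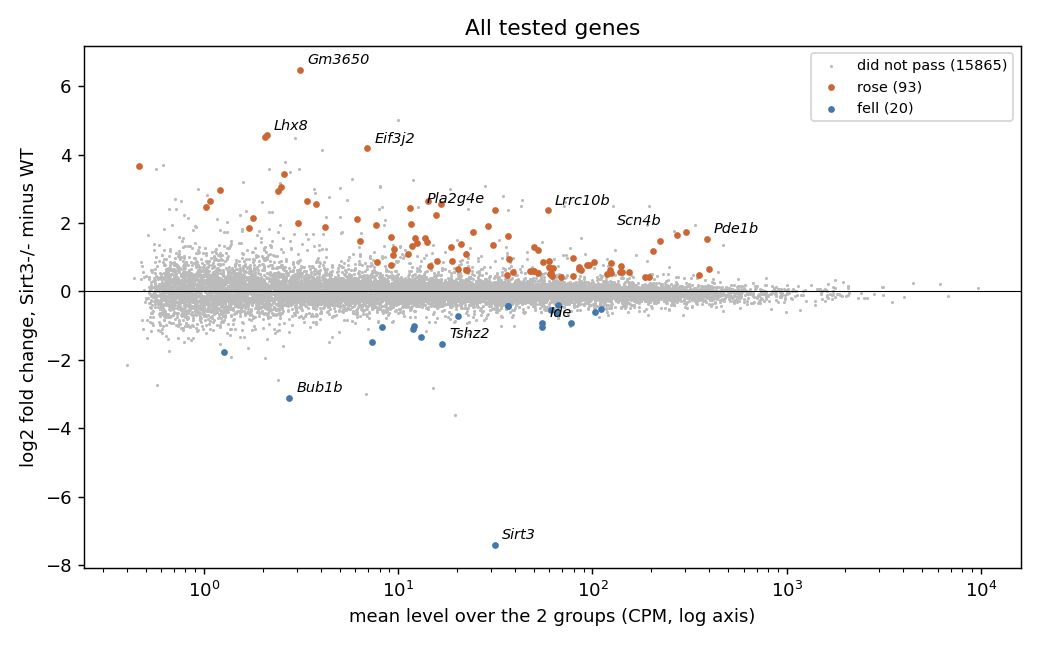
Log2 fold change of Sirt3-/- over WT (y axis) against the mean level of the 2 groups in CPM (x axis, log scale) for all 15978 tested genes. The 93 genes that rose (orange) reach high levels, with Scn4b and Pde1b above 100 CPM, and Sirt3 lies far below the 20 genes that fell (blue).

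The mitochondrial gene lists, where SIRT3 acts, held 286 tested genes in 11 lists. The only one to pass was Sirt3 itself (0.350%). Of the 24 genes whose proteins are known SIRT3 substrates, 0 passed in edgeR, 0 passed in DESeq2 and 0 had an unadjusted p under 0.05. Their log2 fold changes ran from -0.19 to 0.19 with a median of -0.01. Sod2, the superoxide dismutase of the matrix, was at 120 ± 3.22 CPM in WT and 126 ± 7.52 CPM in Sirt3-/- (log2 fold change 0.07, adjusted p = 0.735), and Idh2, which makes NADPH in the matrix, was at 41.3 ± 3.27 and 36.2 ± 6.50 CPM (log2 fold change -0.19, adjusted p = 0.600). In both genes the groups overlapped.

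The respiratory chain genes lay mostly above 0 with 0 calls in edgeR or DESeq2 (complex I had 4 genes with an unadjusted p under 0.05). Of 37 nuclear genes for complex I, the NADH dehydrogenase, 33 had log2 fold changes above 0, with a median of 0.10 and a range from -0.16 to 0.30. Ndufa1, an accessory subunit, was at 31.9, 38.1 and 40.0 CPM in WT and at 41.2, 48.2 and 45.9 CPM in Sirt3-/- (adjusted p = 0.311). For complexes II to IV, 22 of 25 were above 0 (median 0.08). For ATP synthase, 12 of 16 were above 0 (median 0.08), and for the mitochondrial ribosome 50 of 73 (median 0.08). Summed over complex I, WT replicate 1 was the lowest library at 2598 CPM, against 2923 and 2889 CPM in the other WT libraries and 2887 to 3035 CPM in Sirt3-/-, so the groups overlapped. Of the 12 protein-coding genes of the mitochondrial genome tested, 11 were above 0 with a median of 0.14. Their summed level was 20290, 23830 and 24150 CPM in WT and 30000, 24110 and 21810 CPM in Sirt3-/-, where replicate 1 was the highest.

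Pathways of fuel use stayed near 0. The 26 genes of pyruvate oxidation and the tricarboxylic acid cycle had a median log2 fold change of 0.01, the 22 genes of fatty acid oxidation and ketone bodies 0.04, and the 23 genes of glycolysis and lactate transport 0.02. None gave a call in edgeR or DESeq2, and 5, 0 and 0 of their genes had an unadjusted p under 0.05. In the antioxidant and glutathione list, 0 of 31 passed in edgeR, 7 had an unadjusted p under 0.05 and 1 passed in DESeq2. Gpx1, a glutathione peroxidase, was at 53.9, 62.2 and 61.4 CPM in WT and 71.7, 81.3 and 77.7 CPM in Sirt3-/-, a separation that missed the threshold (log2 fold change 0.38, SE 0.08, adjusted p = 0.0926). Prdx3, the mitochondrial peroxiredoxin, was at 32.6 ± 0.798 and 41.1 ± 4.01 CPM (adjusted p = 0.178). Outside the fixed lists, Tomm70a, which encodes an import receptor of the outer mitochondrial membrane, rose from 112 ± 4.02 to 167 ± 13.6 CPM (log2 fold change 0.57, adjusted p = 0.0165). Ivd, Gldc and Cad, described below, are metabolic enzymes that fell.

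**Figure D3:**
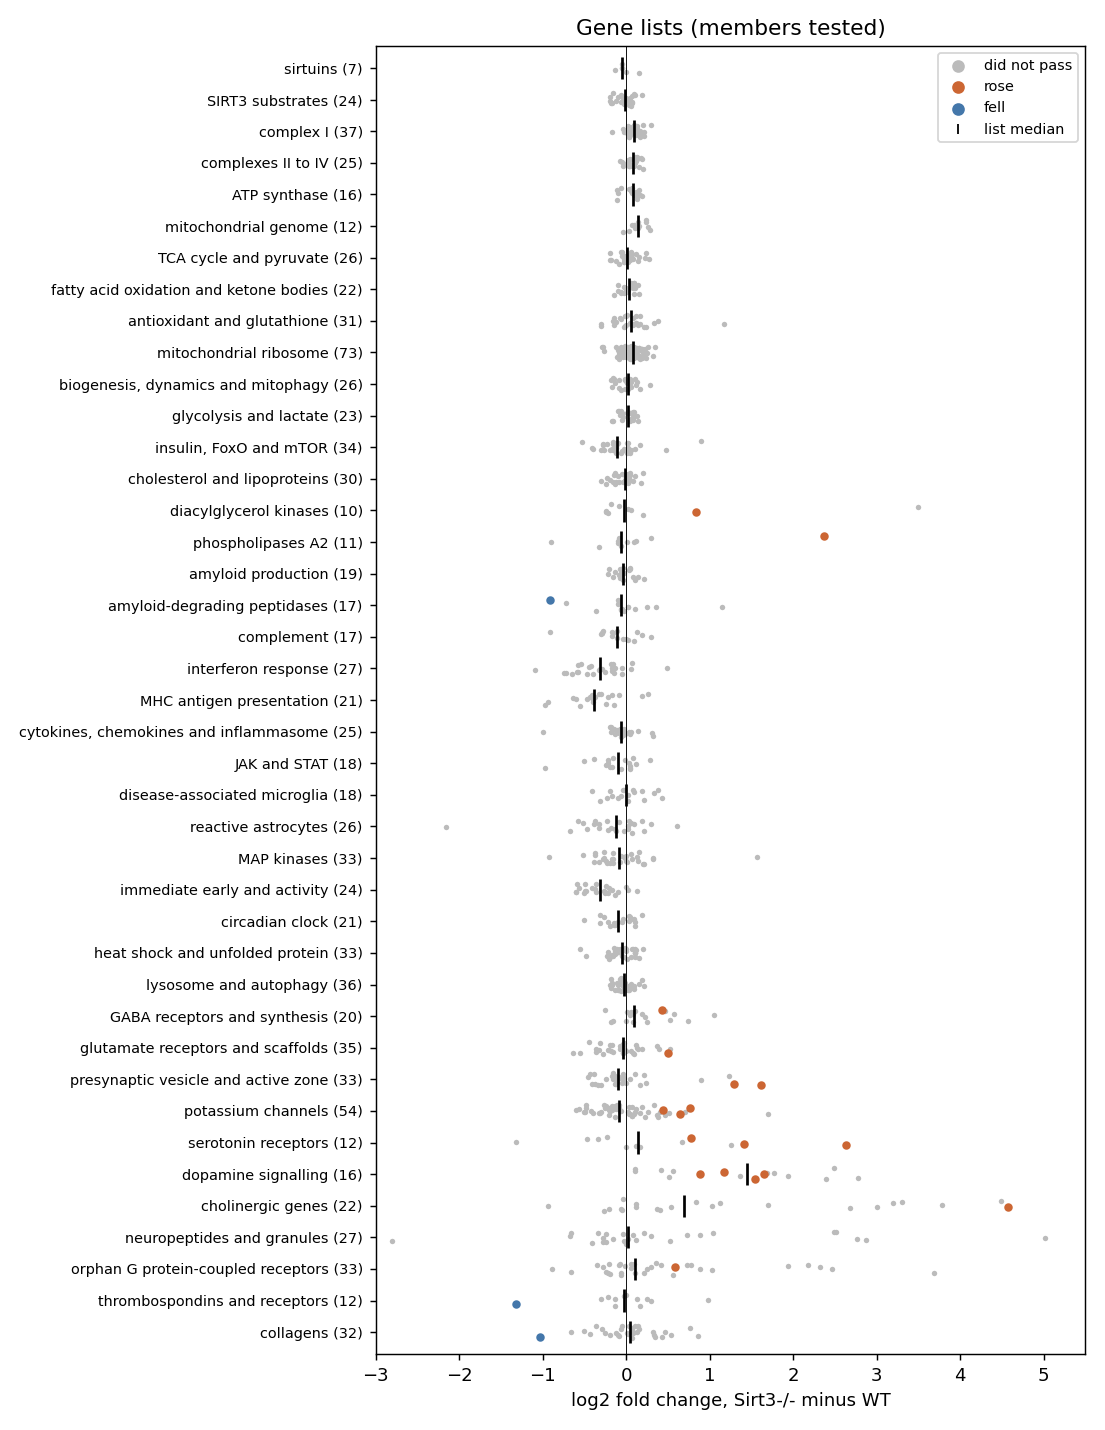
Log2 fold change of Sirt3-/- over WT (x axis) for the members of 41 gene lists (rows, tested members in brackets), with genes that rose in orange, genes that fell in blue, all others in grey and a black bar at each list's median. The mitochondrial lists at the top sit close to 0 with no call except Sirt3 (at -7.40, outside the axis), and the dopamine signalling list has the highest median, at 1.45.

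Among metabolic signalling genes the calls were few. The insulin, FoxO and mTOR list had 0 of 34 calls in edgeR, 5 genes with an unadjusted p under 0.05, 2 calls in DESeq2 and a median of -0.11. In it Foxo1, a transcription factor held back by insulin signalling, was at 24.5, 19.1 and 22.1 CPM in WT and 46.7, 44.2 and 31.3 CPM in Sirt3-/- (log2 fold change 0.89, adjusted p = 0.0598). Igfbp5, which binds insulin-like growth factors, was at 186 ± 5.76 and 141 ± 11.2 CPM (log2 fold change -0.40, adjusted p = 0.0641). In both the groups did not overlap, which was also so for 10.2% of all tested genes in the upward and 8.79% in the downward direction. The 30 genes of sterol synthesis and lipid transport had 0 calls in edgeR, 3 with an unadjusted p under 0.05, 1 call in DESeq2 and a median of -0.01.

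Of the 10 diacylglycerol kinases tested, enzymes that turn the second messenger diacylglycerol into phosphatidic acid, Dgkb alone passed (against 0.707% of all genes). It was at 96.9, 86.4 and 85.0 CPM in WT and at 163, 185 and 130 CPM in Sirt3-/-, so all knockout libraries lay above all WT libraries. The log2 fold change was 0.83 (SE 0.13, adjusted p = 0.0311), and it was lost without any 1 of the WT libraries (adjusted p from 0.146 to 0.199) and without Sirt3-/- replicate 1 (0.0717). Dgkz was at 783 ± 8.65 CPM in WT and 690 ± 184 CPM in Sirt3-/- (adjusted p = 0.746), the spread coming from replicate 2 at 480 CPM. Dgkk, an X-linked member, was at 0.491, 11.03 and 3.82 CPM in Sirt3-/- against 0.197 to 0.679 CPM in WT, and the groups overlapped.

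Ide, the insulin-degrading enzyme, which also cleaves the amyloid peptide, was the 1 call among 17 tested amyloid-degrading peptidases (against 0.707% of all genes). It lies on chromosome 19 from 37268743 to 37337852 (minus strand). Its level was 76.5, 61.3 and 78.5 CPM in WT and 41.4, 34.98 and 38.3 CPM in Sirt3-/-, a fall to 0.530 of WT (log2 fold change -0.92, SE 0.11, adjusted p = 0.0122). The direction was the same in all 17 alternatives, with log2 fold changes from -1.02 to -0.66. The call was lost without WT replicate 1 (adjusted p = 0.0954), without WT replicate 4 (0.0649) and in the 4 Xist libraries (0.202). It was also lost in the edgeR fits of all 12 libraries (0.0635, and 0.895 with region markers as covariates). Sirt3 itself did not pass in those fits either (0.0745 and 0.895). They included 3 libraries whose Sirt3 or App reads went against their labels. The other 16 peptidases had log2 fold changes on both sides of 0 and did not pass in edgeR. Of the 17, 4 had an unadjusted p under 0.05 and DESeq2 called 2, Ide and Mme. Mme, which encodes neprilysin, the other main peptidase for the amyloid peptide, was at 5.43, 3.09 and 5.34 CPM in WT and 10.4, 12.6 and 7.95 CPM in Sirt3-/- (log2 fold change 1.15, SE 0.25, adjusted p = 0.0879 in edgeR and 0.00198 in DESeq2 on the same libraries). It passed in 3 of 17 alternatives.

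Genes of amyloid production stayed near 0. Of 19 tested, 0 passed in edgeR or DESeq2, 1 had an unadjusted p under 0.05, and the median was -0.04. App, the precursor, was at 1771 ± 37.4 CPM in WT and 1680 ± 126 CPM in Sirt3-/- (adjusted p = 0.777). Bace1, the beta-secretase, was at 113 ± 10.4 and 108 ± 3.59 CPM (adjusted p = 0.795).

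Pla2g4e, which encodes a cytosolic phospholipase A2, rose in every Sirt3-/- library. It was at 8.48, 11.8 and 10.4 CPM in WT and 40.7, 55.4 and 61.7 CPM in Sirt3-/-, a 5.17-fold rise (log2 fold change 2.37, SE 0.18, adjusted p = 0.00449). It passed in 15 of 17 alternatives, including each with 1 library left out. The exceptions were the 4 Xist libraries (adjusted p = 0.0734) and the fit of all 12 libraries with region markers as covariates (0.895), in which Sirt3 itself did not pass either. The other 10 phospholipase A2 genes tested had log2 fold changes from -0.90 to 0.30 and did not pass.

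No gene of the inflammatory lists passed. Outside these lists, the immune gene Cd4 rose, and so did Ido1, a member of the striatal marker list, both given below. The call of Cd4 held in 8 of 17 alternatives and that of Ido1 in 3 of 16. Over 7 lists with 143 tested genes, edgeR called 0 in either direction, 27 had an unadjusted p under 0.05 and DESeq2 called 4, and the median log2 fold change was -0.15. The 21 genes of antigen presentation by the major histocompatibility complex had a median of -0.39, with 19 below 0. In 8 of them every Sirt3-/- library was lower than any WT library, which held for 8.79% of all tested genes. DESeq2 called 3 of the list. B2m, the light chain of class I molecules, was at 59.9, 64.9 and 55.8 CPM in WT and 46.5, 40.0 and 36.6 CPM in Sirt3-/- (log2 fold change -0.55, SE 0.10, adjusted p = 0.0511). It lies on chromosome 2, 1.981 Mb from the start of Pla2g4e and near the other called genes of that chromosome described below. Whether this position had a part in its level was not tested. H2-K1 and H2-D1, class I heavy chains whose alleles differ between mouse strains, had log2 fold changes of -0.39 (adjusted p = 0.0855) and -0.47 (adjusted p = 0.114). Reads of such genes can be split between near-identical relatives, so their values are uncertain.

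Of the interferon-induced genes, 24 of 27 lay below 0 with a median of -0.31. edgeR and DESeq2 called 0, and 7 had an unadjusted p under 0.05. Usp18, which restrains interferon signalling, was at 1.84 ± 0.517 CPM in WT and 0.863 ± 0.0984 CPM in Sirt3-/- (adjusted p = 0.245). The JAK and STAT list had 0 of 18 calls by either tool, 5 genes with an unadjusted p under 0.05 and a median of -0.10. Socs3, a feedback inhibitor of that pathway, was at 6.60 ± 1.09 and 4.66 ± 1.14 CPM (adjusted p = 0.426). The complement list had 0 of 17 calls by either tool, 2 genes with an unadjusted p under 0.05 and a median of -0.11.

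Microglial lists had medians near 0. Disease-associated microglia genes had 0 of 18 calls by edgeR or DESeq2, 2 with an unadjusted p under 0.05 and a median of 0.00. Homeostatic microglia genes had 0 of 15 calls by either tool, 1 with an unadjusted p under 0.05 and a median of -0.04. Tyrobp, an adaptor of the microglial receptor TREM2, was at 11.9 ± 0.813 CPM in WT and 10.4 ± 1.67 CPM in Sirt3-/- (adjusted p = 0.649). Cd83 was at 10.5 ± 1.89 and 12.2 ± 3.43 CPM (adjusted p = 0.731). C3, the central complement component, was at 3.28, 6.24 and 2.39 CPM in WT and 1.04, 5.69 and 6.83 CPM in Sirt3-/-, and the groups overlapped. Ccl3, Clec7a, Cst7 and Itgax, which mark activated microglia, had too few reads in these 6 libraries to be tested.

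Among reactive astrocyte genes, 0 of 26 passed in edgeR, 5 had an unadjusted p under 0.05, 2 passed in DESeq2 and the median was -0.12. Gfap, the astrocyte intermediate filament, was at 245, 266 and 202 CPM in WT and 121, 177 and 149 CPM in Sirt3-/- (log2 fold change -0.68, adjusted p = 0.124). Serpina3k, a serine protease inhibitor, was at 0.622 to 0.691 CPM in WT and 0.115 to 0.188 CPM in Sirt3-/- (adjusted p = 0.110). Its relative Serpina3n was at 12.1 ± 2.07 and 12.3 ± 1.76 CPM (adjusted p = 0.976). The general astrocyte list also lay below 0 for 13 of 15 genes, with a median of -0.19. In bulk tissue, fewer cells of a type and less RNA per cell cannot be told apart.

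Every call in the synaptic lists was a rise. The 9 synaptic lists held 252 tested genes, of which 16 rose and 0 fell (6.35%, against 0.707% of all genes). Their median log2 fold change was 0.05. DESeq2 called 52 of them, and with region markers as covariates edgeR called 0 in each of the 9 lists. The dopamine list gave 4 of the 16 rises, and markers of striatal neurons, described below, were higher in the same libraries. In the serotonin receptor list, 3 of 12 rose. Htr1b, a presynaptic inhibitory receptor, was at 8.09, 6.11 and 6.16 CPM in WT and 20.6, 18.3 and 15.5 CPM in Sirt3-/- (log2 fold change 1.41, SE 0.16, adjusted p = 0.0122). It was lost without WT replicate 2 (adjusted p = 0.107) or WT replicate 4 (0.0648) and in the 4 Xist libraries (0.112). Htr1d, a related receptor, rose from 0.930 ± 0.295 to 5.84 ± 2.82 CPM (log2 fold change 2.63, adjusted p = 0.0302). Htr2a, an excitatory receptor, rose from 6.74 ± 0.409 to 11.6 ± 1.06 CPM (log2 fold change 0.78, adjusted p = 0.0446). The call of Htr1d held in 8 of 16 alternatives, and that of Htr2a in 3 of 17 and in no fit with 1 library left out.

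Potassium channel genes gave 3 rises among 54 tested in edgeR, where 0.582% of all tested genes rose, and 8 calls in DESeq2. The list median was -0.08, with 29 of the 54 below 0. Kcnab1, an auxiliary beta subunit, was at 70.7, 68.3 and 68.6 CPM in WT and 126, 129 and 99.4 CPM in Sirt3-/- (log2 fold change 0.77, SE 0.10, adjusted p = 0.0139). Its call was lost without any 1 WT library (adjusted p from 0.0950 to 0.125). Kcnip2, a calcium-binding partner of A-type channels, rose from 167 ± 4.53 to 225 ± 7.57 CPM, and Kcnk2, a background channel, from 66.8 ± 8.78 to 104 ± 9.60 CPM (adjusted p = 0.0311 and 0.0356). These calls held in 6 and 8 of 17 alternatives. Kcna4, which carries A-type current, was at 18.2 ± 2.54 and 29.5 ± 3.67 CPM and did not pass (adjusted p = 0.0511).

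At the synapse proper, Syt6, a synaptotagmin, rose from 18.2 ± 3.18 to 55.7 ± 11.7 CPM (adjusted p = 0.0151), and Unc13c, which primes vesicles for release, from 28.9 ± 2.92 to 70.9 ± 16.1 CPM (adjusted p = 0.0243). They were the edgeR calls among 33 presynaptic genes, whose median was -0.10. Over all tested genes, 0.582% rose. DESeq2 called 4 of the 33. Of 35 genes for glutamate receptors and scaffolds 1 rose, Grm4, a presynaptic metabotropic receptor, from 49.9 ± 2.67 to 70.6 ± 7.54 CPM (adjusted p = 0.0494), a call that held in 4 of 17 alternatives. Of 20 GABA receptor and synthesis genes 1 rose, Gabra4, an extrasynaptic receptor subunit, from 58.6 ± 1.74 to 79.2 ± 4.72 CPM (adjusted p = 0.0359), which held in 6 of 17. DESeq2 called 3 of the glutamate and 4 of the GABA genes. Gad1 and Gad2, which make GABA, had log2 fold changes of 0.47 and 1.05 (adjusted p = 0.0972 and 0.291). Outside the lists, Cnr1, the main cannabinoid receptor of the brain, rose from 98.2 ± 7.74 to 141 ± 3.68 CPM (adjusted p = 0.0243), and Cacng4, an auxiliary subunit of AMPA receptors, from 31.8 ± 2.51 to 73.0 ± 10.4 CPM (adjusted p = 0.00449).

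Of the 41 lists that are not tissue markers, dopamine signalling had the highest median. All 16 genes tested were above 0, with a median log2 fold change of 1.45. In 13 of them the Sirt3-/- libraries all lay above the WT libraries, against 10.2% of all tested genes. The 4 that rose act downstream of the dopamine receptors. Pde1b, a phosphodiesterase, was at 211, 152 and 231 CPM in WT and 524, 728 and 479 CPM in Sirt3-/- (log2 fold change 1.54, adjusted p = 0.0339). Gng7, a G protein gamma subunit, rose from 132 ± 24.4 to 414 ± 117 CPM, Gnal, the G protein alpha subunit of striatal and olfactory neurons, from 127 ± 13.5 to 285 ± 67.0 CPM, and Pde7b, another phosphodiesterase, from 42.3 ± 7.56 to 77.8 ± 8.08 CPM. The receptors themselves varied more. Drd1a was at 12.3, 7.03 and 16.0 CPM in WT and 57.9, 81.6 and 46.3 CPM in Sirt3-/- (log2 fold change 2.39, adjusted p = 0.0744). Drd2 was at 9.61, 3.61 and 13.3 CPM and at 54.5, 81.6 and 46.2 CPM (log2 fold change 2.78, adjusted p = 0.123).

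Medium spiny neurons, the projection neurons of the striatum, carry dopamine receptors and their effectors at far higher levels than cortical neurons, and the striatum lies just beneath the cortex. All 20 striatal projection neuron markers tested were higher in every Sirt3-/- library than in any WT library, against 10.2% of all tested genes, with log2 fold changes from 0.54 to 3.07 and a median of 2.39. The dopamine list shares 5 of these genes. The summed level of the striatal markers was 771, 576 and 1020 CPM in WT and 2737, 3870 and 2259 CPM in Sirt3-/-. Of the 20, 5 passed in edgeR and 18 in DESeq2, and all 20 had an unadjusted p under 0.05. The 5 are Scn4b, a sodium channel beta subunit (139 ± 42.6 to 465 ± 79.6 CPM, adjusted p = 0.0454), Rarb, a retinoic acid receptor (11.3 ± 1.48 to 37.5 ± 10.4 CPM, adjusted p = 0.0249), Sh3rf2, Foxp1 and Ido1, the last of which encodes a tryptophan-degrading enzyme. Among the 15 that did not pass in edgeR, Penk, the precursor of the enkephalins, was at 63.8, 40.5 and 70.8 CPM in WT and 287, 477 and 233 CPM in Sirt3-/- (adjusted p = 0.0717 in edgeR and 5.61e-08 in DESeq2), and Ppp1r1b, the DARPP-32 gene, was at 140 ± 37.0 and 534 ± 154 CPM (adjusted p = 0.0590).

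The highest summed striatal level was in Sirt3-/- replicate 2, which was also the highest library for 76 of the 93 rises. In that library the summed level of 21 cortical layer markers was the lowest of the 6, at 1887 CPM, against 2764 and 2926 CPM in the other Sirt3-/- libraries and 2879 to 3338 CPM in WT. Fezf2, a transcription factor of deep-layer projection neurons, was at 42.7, 45.1 and 37.0 CPM in WT and 33.4, 14.7 and 28.8 CPM in Sirt3-/- (adjusted p = 0.451). The list median was -0.32 with 17 of 21 genes below 0. Foxp2, a marker of deep cortical layers that striatal neurons also express, rose from 11.5 ± 1.61 to 30.4 ± 9.10 CPM (adjusted p = 0.0451). Without Sirt3-/- replicate 2 the striatal median was 1.93 with 5 calls, and the dopamine list had 6 calls and a median of 1.23. When striatal, thalamic and choroid plexus marker levels entered a fit of all 12 libraries as covariates, the striatal and dopamine medians were 0.07 and 0.13. The covariate is built from the striatal markers, 5 of which are in the dopamine list, so these medians are near 0 by construction and say nothing on tissue content. In that fit 4 genes passed in all, of which Eif3j2 was the only one among the 113. That fit did not call Sirt3 either (adjusted p = 0.895), and of the 6 libraries it added from mice with amyloid transgenes 3 had Sirt3 or App reads that went against their labels. The part of striatal tissue in each rise was not tested.

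**Figure D4:**
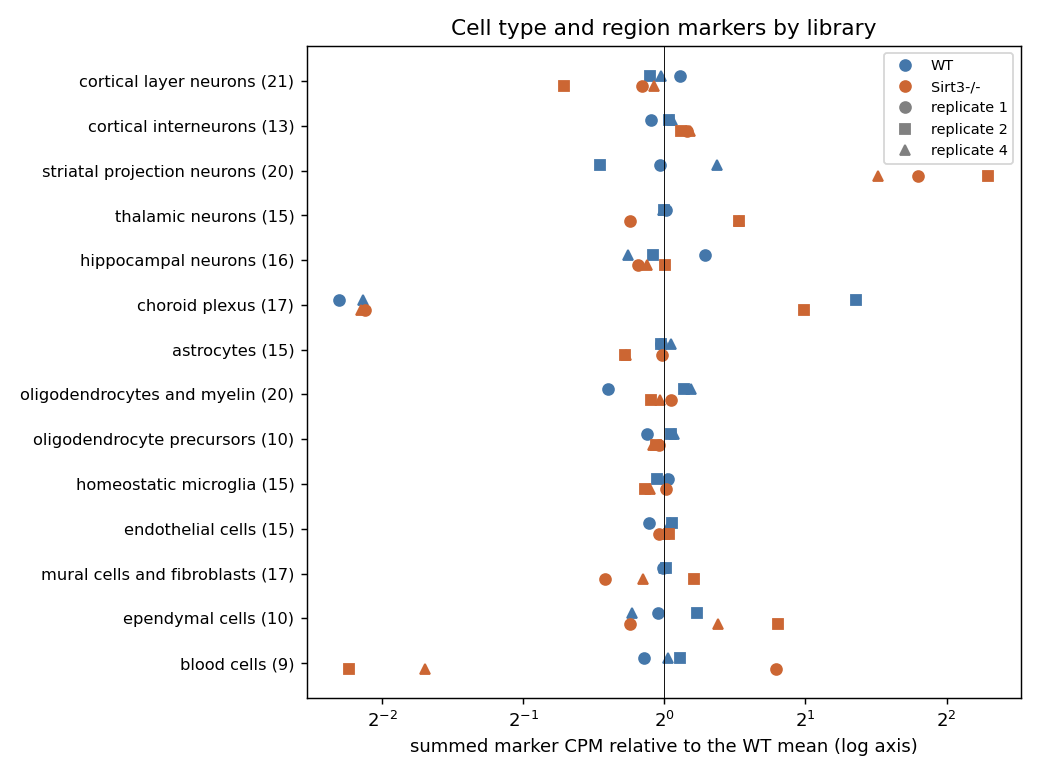
Summed CPM of each marker list (rows, number of genes in brackets) in each library relative to the WT mean (x axis, log scale), WT in blue and Sirt3-/- in orange, the marker shape giving the replicate number. Striatal markers separate the groups, from 2259 to 3870 CPM against 576 to 1020 CPM, and choroid plexus and blood markers differ between libraries of the same group.

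Cholinergic genes had a median of 0.69, with 8 of 22 higher in every Sirt3-/- library than in any WT library, against 10.2% of all tested genes. They gave 1 call in edgeR, where 0.707% of all genes passed, and 7 in DESeq2. Without Sirt3-/- replicate 2 the median was 0.49 with 6 calls. Lhx8, a transcription factor of forebrain cholinergic neurons, rose from 8 reads in WT to 205 in Sirt3-/-, a ratio of 25.2 (exact 95% counting interval 12.5 to 59.1, adjusted p = 0.0365), with 1.90, 7.52 and 2.69 CPM in the Sirt3-/- libraries. Chat, which makes acetylcholine, was at 1.06 ± 0.619 and 10.5 ± 6.50 CPM (adjusted p = 0.0928). Thalamic markers summed to 297 to 301 CPM in WT and to 252, 432 and 431 CPM in Sirt3-/-, and Synpo2 among them rose from 6.69 ± 0.246 to 16.8 ± 5.14 CPM (adjusted p = 0.0454). Choroid plexus markers were high in replicate 2 of both groups, at 2686 CPM in WT and 2075 CPM in Sirt3-/-, against 212 to 240 CPM in the other 4. Blood markers, mainly haemoglobin chains, were at 142 to 169 CPM in WT and 271, 33.3 and 48.3 CPM in Sirt3-/-. Markers of oligodendrocytes, their precursors, endothelium and mural cells had 0 calls in edgeR or DESeq2, 4 genes in all with an unadjusted p under 0.05, and medians from -0.06 to 0.00. Their part in the results above was not tested.

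Immediate early genes, which neurons switch on with activity, had 0 of 24 calls in edgeR, 1 with an unadjusted p under 0.05 and 1 call in DESeq2, with 21 below 0 and a median of -0.31. Their summed level was 3152 to 3367 CPM in WT and 3517, 1640 and 2634 CPM in Sirt3-/-, with replicates 2 and 4 below all WT libraries and replicate 1 above them. edgeR called 0 of 21 clock genes (median -0.10), 0 of 33 chaperone and unfolded protein genes (-0.05), 0 of 36 lysosome and autophagy genes (-0.03) and 0 of 33 MAP kinase genes (-0.08). An unadjusted p under 0.05 was reached by 0, 3, 1 and 5 of them and DESeq2 called 0, 0, 0 and 3.

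The falls other than Sirt3 and Ide included matrix, adhesion and enzyme genes. Thbs4, a thrombospondin that astrocytes secrete, was at 15.5, 19.3 and 21.2 CPM in WT and 10.2, 5.74 and 6.45 CPM in Sirt3-/- (log2 fold change -1.32, SE 0.22, adjusted p = 0.0454). Col5a1, a fibrillar collagen chain, was at 75.4, 69.4 and 77.3 CPM in WT and 41.1, 27.5 and 40.3 CPM in Sirt3-/- (log2 fold change -1.03, SE 0.15, adjusted p = 0.0302). Both were single calls in their lists, 1 of 12 for thrombospondins and their receptors and 1 of 32 for collagens. Over all tested genes, 0.125% fell. The calls of Thbs4 and Col5a1 were lost without any 1 WT library or without Sirt3-/- replicate 4. Tnxb, a tenascin, fell from 16.1 ± 1.17 to 8.02 ± 1.88 CPM, and Tenm2, a teneurin that joins synapses, from 124 ± 13.6 to 81.4 ± 4.06 CPM (adjusted p = 0.0356 and 0.0251).

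Tshz2, a zinc finger transcription factor, was at 20.4, 27.7 and 26.8 CPM in WT and 10.3, 8.90 and 6.58 CPM in Sirt3-/- (log2 fold change -1.53, SE 0.18, adjusted p = 0.0123). Grp, the gastrin-releasing peptide, fell from 10.7 ± 3.04 to 3.88 ± 0.544 CPM (adjusted p = 0.0305). A pair of mitochondrial enzymes of amino acid breakdown outside the lists also fell. One is Ivd, isovaleryl-CoA dehydrogenase of leucine breakdown, whose values are given with its neighbours on chromosome 2. The other is Gldc, the glycine decarboxylase, which fell from 42.2 ± 1.36 to 31.4 ± 1.55 CPM (adjusted p = 0.0454). Cad, which starts pyrimidine synthesis, fell from 42.2 ± 1.72 to 31.6 ± 0.484 CPM (adjusted p = 0.0420). The calls of Ivd, Gldc and Cad held in 10, 5 and 7 of 17 alternatives. Among the 6 fits with 1 library left out, they held in 2, 1 and 1.

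Called genes lay close together at several places, which was looked at after their values were seen. Each stretch given here by its coordinates starts and ends at a called gene, so its share of calls is high by construction. The 20 Mb windows around Pla2g4e, Eif3j2 and Onecut2 are centred on called genes of these stretches and include their other calls. The shares of these windows are raised by that choice too. On chromosome 2 between 118598211 and 120245335, 4 of 41 tested genes passed. Within 20 Mb of Pla2g4e, 6 of 299 other tested genes passed (2.01%), against 0.707% of all genes. Bub1b, a mitotic checkpoint kinase, was at 4.41, 5.39 and 4.96 CPM in WT and 1.23, 0.230 and 0.251 CPM in Sirt3-/- (log2 fold change -3.10, SE 0.51, adjusted p = 0.0437). Ivd was at 105, 104 and 95.5 CPM in WT and 63.9, 54.3 and 42.8 CPM in Sirt3-/- (log2 fold change -0.92, SE 0.13, adjusted p = 0.0302). Gm13999, an antisense gene within Mapkbp1, had 3 reads in WT and 43 in Sirt3-/- (ratio 14.1, exact 95% counting interval 4.51 to 71.0), and without strand its reads cannot be told from those of Mapkbp1. Pla2g4e was the other call, so 2 of the 4 fell and 2 rose.

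The 250 bases before the annotated start of Sirt3 and of the 3 protein-coding genes of this window are printed because they are the promoter stretches beside the main fall and the chromosome 2 calls (RefSeq, GRCm38.p6, 5′ to 3′ in the direction of the gene). Capitals mark CCAAT boxes, searched on both strands as CCAAT or ATTGG, a promoter element bound by the factor NF-Y.
Sirt3 (chr7:140882310-140882559, minus strand): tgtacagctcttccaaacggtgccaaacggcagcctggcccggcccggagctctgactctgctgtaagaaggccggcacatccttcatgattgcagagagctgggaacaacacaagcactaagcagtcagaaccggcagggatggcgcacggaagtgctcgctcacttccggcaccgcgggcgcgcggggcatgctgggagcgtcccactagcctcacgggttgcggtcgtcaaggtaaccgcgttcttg
Bub1b (chr2:118597961-118598210, plus strand): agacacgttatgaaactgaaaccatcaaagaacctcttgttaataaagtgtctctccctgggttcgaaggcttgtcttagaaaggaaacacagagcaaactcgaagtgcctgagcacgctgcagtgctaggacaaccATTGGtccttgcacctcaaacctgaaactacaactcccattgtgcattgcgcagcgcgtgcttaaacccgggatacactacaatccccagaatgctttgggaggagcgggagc
Ivd (chr2:118861744-118861993, plus strand): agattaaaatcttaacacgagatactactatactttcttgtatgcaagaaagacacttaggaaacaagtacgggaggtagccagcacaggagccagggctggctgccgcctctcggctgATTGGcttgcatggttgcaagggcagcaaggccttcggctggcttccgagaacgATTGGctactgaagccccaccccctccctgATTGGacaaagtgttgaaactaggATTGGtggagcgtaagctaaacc
Pla2g4e (chr2:120245336-120245585, minus strand): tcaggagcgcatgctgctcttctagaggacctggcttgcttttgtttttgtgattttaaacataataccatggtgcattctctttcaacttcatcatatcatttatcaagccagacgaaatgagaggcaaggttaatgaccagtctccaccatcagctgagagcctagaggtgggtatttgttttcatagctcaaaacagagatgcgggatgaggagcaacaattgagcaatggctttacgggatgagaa
Ivd held 4 such boxes, Bub1b 1, and Sirt3 and Pla2g4e 0. The window of 250 bases held at least 1 box in 33.8% of all 32851 RefSeq windows, in 22 of the 62 rises (35.5%) and 8 of the 15 falls (53.3%) that matched a window by symbol, and in 39.7% of the 11419 tested genes that matched. A box is a match of letters and not a measured binding site.

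On chromosome 18 between 42053667 and 43477796, a stretch also bounded by called genes, 4 of 10 tested genes rose: Sh3rf2, Stk32a, Gm3650 and Eif3j2. Within 20 Mb of Eif3j2, 4 of 230 other tested genes passed (1.74%), against 0.707% of all genes. Eif3j2, which encodes a subunit of the translation initiation factor eIF3, was at 0.735, 0.526 and 0.879 CPM in WT and 8.97, 14.1 and 16.4 CPM in Sirt3-/-, an 18.2-fold rise (log2 fold change 4.18, SE 0.30, adjusted p = 0.00107). It passed in all 16 alternatives that gave it an adjusted p. The adjacent pseudogene Gm3650 had 3 reads in WT and 307 in Sirt3-/- (ratio 101, exact 95% counting interval 34.1 to 491). Sh3rf2 rose from 3.58 ± 1.15 to 19.5 ± 5.03 CPM and Stk32a from 3.19 ± 0.859 to 12.2 ± 4.09 CPM (adjusted p = 0.0139 and 0.0314). Further along, St8sia3, Onecut2 and Grp passed within 64254359 to 65886579, where 11 genes were tested. Within 20 Mb of Onecut2, 3 of 180 other tested genes passed (1.67%). On chromosome 19, Fgfbp3 beside Ide fell from 11.1 ± 1.69 to 5.36 ± 0.813 CPM (adjusted p = 0.0356). It was the 1 call among 23 other tested genes within 2 Mb of Ide (4.35%). Within 20 Mb of Ide, 3 of 259 other tested genes passed (1.16%), against 0.707% of all genes. Of these, Kcnip2 rose, and Fgfbp3 and Gldc fell.

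Near Sirt3 itself, 3 of 283 other tested genes within 20 Mb passed, all of them rises. They were Chst15, a sulfotransferase of chondroitin sulfate chains (39.0 ± 3.84 to 59.6 ± 4.77 CPM), 9330101J02Rik (5.64 ± 0.587 to 13.3 ± 3.66 CPM) and Fgf3, a fibroblast growth factor (0.521 ± 0.330 to 4.44 ± 1.68 CPM, 26 reads against 223). That is 1.06% of the genes in the window, against 0.707% of all genes.

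**Figure D5:**
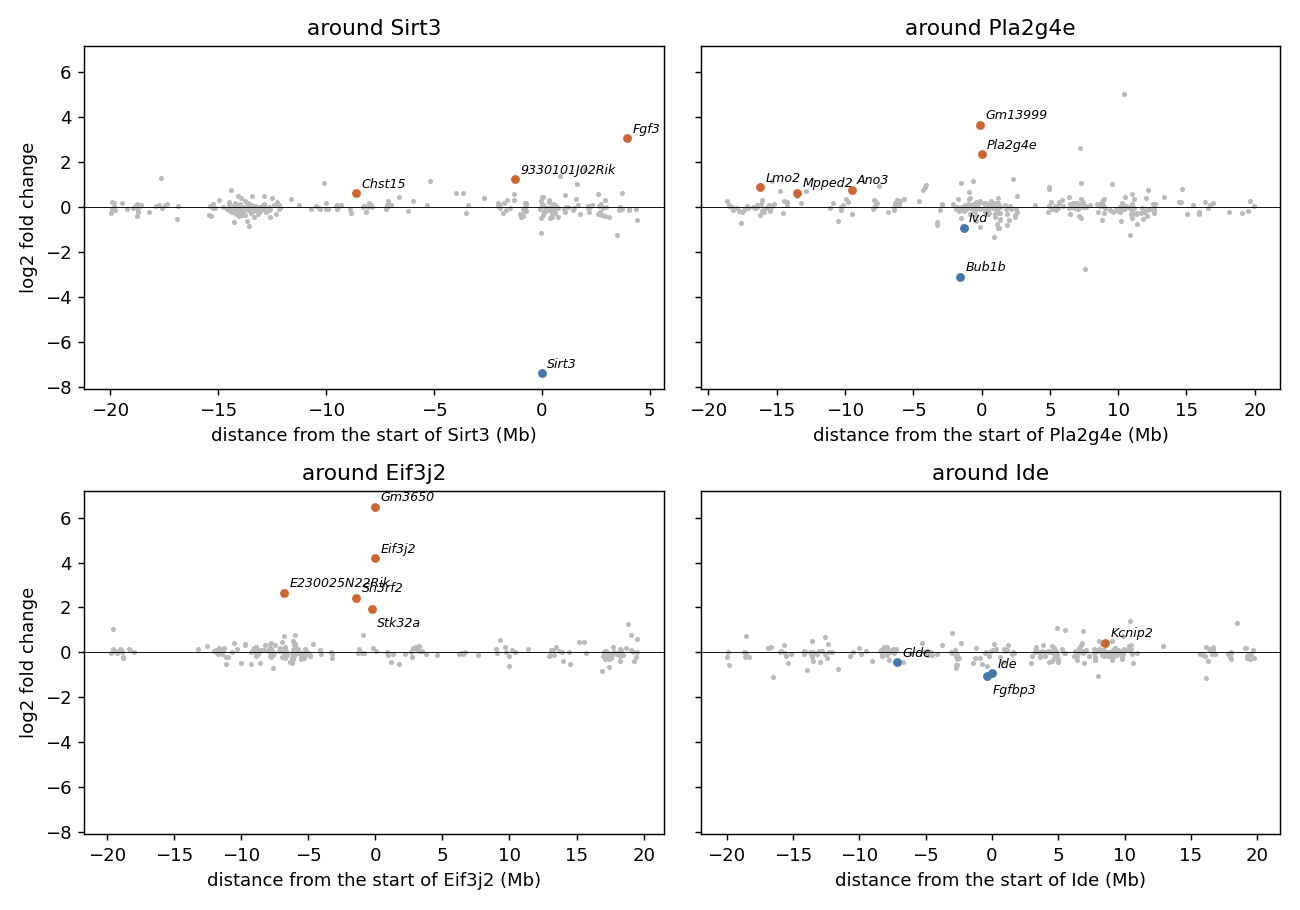
Log2 fold change of Sirt3-/- over WT (y axis) against the distance in Mb from the start of Sirt3, Pla2g4e, Eif3j2 and Ide (x axis) for tested genes within 20 Mb. Called genes are named and coloured (orange rose, blue fell), and around Eif3j2 the rises are Gm3650 at 6.48, Sh3rf2, Stk32a and, farther away, E230025N22Rik.

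Several of the largest rises are gene copies, whose reads cannot be cleanly assigned. Eif3j1, the near-identical partner of Eif3j2, was named after its values were seen. It lies on chromosome 2, 1.862 Mb from the start of Pla2g4e. It was at 36.5, 36.5 and 33.5 CPM in WT and 26.4, 18.6 and 17.2 CPM in Sirt3-/- (log2 fold change -0.78, adjusted p = 0.0700). The sum of the pair was 37.3, 37.1 and 34.4 CPM in WT and 35.4, 32.7 and 33.6 CPM in Sirt3-/-, and the groups overlapped. Pcna-ps2, by name a copy of the replication clamp gene Pcna, had 8 reads in WT and 196 in Sirt3-/- (ratio 24.1, exact 95% counting interval 12 to 56.6), while Pcna was at 31.9 ± 3.24 and 24.6 ± 3.96 CPM (adjusted p = 0.308). Rps4l, a copy of the ribosomal protein gene Rps4x, fell from 16.3 ± 2.48 to 7.54 ± 1.59 CPM (adjusted p = 0.0305), and Rps4x was at 177 ± 13.6 and 184 ± 8.78 CPM (adjusted p = 0.832). Gm3828 overlaps Gng7 on the same strand and rose with it, from 15 reads to 87. Other called genes overlap a neighbour too, such as Ide with the pseudogene Rpl10-ps6 on its own strand and Htr1b, Cacng4, Col5a1, Syt6 and Tenm2 with transcripts on the opposite strand, and the strand setting of the counting is not stated.

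The remaining large rises were mostly genes of low level. Ankk1, a kinase gene beside Drd2, rose from 21 to 235 reads (log2 fold change 3.43, adjusted p = 0.0122), Ptpn7, a tyrosine phosphatase, from 27 to 213 reads, Igfbpl1 from 13 to 108 reads and E230025N22Rik from 14 to 92 reads. Clspn, a DNA replication checkpoint gene, rose from 1.10 ± 0.546 to 6.41 ± 0.581 CPM (adjusted p = 0.0123). Cd4, a co-receptor of helper T cells, rose from 3.91 ± 1.91 to 24.4 ± 4.68 CPM (adjusted p = 0.0305), and Nexn, an actin-binding protein, from 4.79 ± 1.91 to 28.2 ± 5.29 CPM (adjusted p = 0.0139). Lrrc10b was at 19.0, 17.2 and 20.9 CPM in WT and 92.9, 125 and 77.9 CPM in Sirt3-/- (log2 fold change 2.37, SE 0.18, adjusted p = 0.00557). In all 113 called genes the 2 groups did not overlap. With 3 libraries per group this largely follows from passing the test and adds no support. It also held for 10.2% of all tested genes in the upward and 8.79% in the downward direction.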

How the data were processed

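Total RNA of brain cortex was captured by oligo-dT and sequenced after library preparation with an NEBNext Ultra kit. The submitters' processing notes name TopHat, DESeq2 and the GRCm38 (mm10) build, and neither the counting tool, nor its strand setting, nor the gene annotation is named there or in the study's methods. The authors deposited a table of read counts per gene and per library, with FPKM values beside them. Its columns of the authors' own comparisons (normalized group means, log2 fold changes, p-values and adjusted p-values) were not used. Groups and replicate numbers came from the library labels. Read counts of the 6 libraries were filtered with filterByExpr, scaled by TMM and tested by edgeR 4.0.16 (R 4.3.3) with its robust quasi-likelihood test, group being the single term, and p-values were adjusted by Benjamini-Hochberg over 15978 genes with a threshold of 0.05. CPM values use the TMM library sizes. FPKM values, which the authors deposited, served only for correlation between libraries on the log2(FPKM + 1) scale. Intervals of read ratios are exact and cover counting error only. Tables and figures were made in Python 3.11.15.

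On counts simulated for this comparison over 15978 genes, 44.8% of 67 genes changed 1.5-fold were called. The share was 67.2% of 67 genes changed 2-fold and 84.8% of 66 genes changed 4-fold. Beside these true calls, 14 of 15778 unchanged genes were called. The simulated libraries were drawn independently, without the differences in tissue markers seen between the real ones. The 55 gene lists and the genes named were chosen with earlier results of these data known. The text names Sirt3 and the genes of the study's own account, up to 15 rises and 15 falls by size, up to 4 members of each list by p, and called genes near Sirt3 or near each other. Cacng4, Cad, Chat, Cnr1, Drd1a, Drd2, Eif3j1, Fezf2, Gldc, Idh2, Ido1, Lrrc10b, Mapkbp1, Pcna, Ppp1r1b, Psmd13, Ric8, Rps4x, Sod2 and Tomm70a lie outside that rule and were chosen after their values were seen. Lists are described by counts and medians, with no set test. Alternatives were DESeq2 1.42.0, another normalization, other filters, fits of all 12 libraries, a replicate block, leave-one-out fits over the 6 libraries and, added after seeing the data, sex from reads as a covariate and the 4 Xist libraries alone. The 6 libraries from mice with amyloid transgenes entered only those wider fits. A few genes of the lists are not reported here.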

Additional observations from a re-analysis of the deposited data

Results flagged for a closer look

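Reads of the Y-linked gene Ddx3y were found in libraries labelled female, outside the measurements compared above. Ddx3y was at 32.5 CPM in WT replicate 4 and at 31.9 CPM in Sirt3-/- replicate 4, and the other 4 libraries had 0 reads of it. Each group held 1 such library.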

How the results depend on the processing

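The count of calls, 113 (93 rises and 20 falls), moved with most settings. DESeq2 called 379 (274 and 105) on the 6 libraries and 428 (292 and 136) on all 12. No low-count filter gave 251 (180 and 71), and a filter of at least 1 CPM in all 6 libraries gave 70 (58 and 12). edgeR on all 12 libraries gave 49 (39 and 10), 70 (50 and 20) without the 3 libraries of doubtful label, and 4 (4 and 0) with 3 region markers as covariates. Leaving out 1 library gave 9 to 165 calls, 7 to 125 rises and 2 to 40 falls. Settings added after seeing the data gave 33 (29 and 4) with sex as a covariate and 12 (11 and 1) in the 4 Xist libraries. The replicate block gave 11 (7 and 4), all among the 113. Deviations of same-numbered libraries correlated at -0.128, 0.127 and 0.095, not all over 0.1, and no label ties the numbers, so they were not taken as pairs. Replicate 4 of both groups held Y-linked reads, however, and replicate 2 of both was high in choroid plexus markers.

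Sirt3 had a log2 fold change of -7.39 in the edgeR fit of all 12 libraries (adjusted p = 0.0745) and of -10.27 with region covariates (adjusted p = 0.895), and passed in the other alternatives that gave it an adjusted p, leave-one-out values running from -7.61 to -7.09. Of 1680 values of named genes under alternatives, 21 changed sign. With region covariates C3 was at -0.0403, Fezf2 at 0.36, Gm3828 at -0.50, Ido1 at -0.72, Igfbpl1 at -0.25, Ppp1r1b at -0.16, Sh3rf2 at -0.0101, Sirt4 at 0.0203 and Tyrobp at 0.0774. With 1 library left out, Bace1 ran from -0.125 to 0.0086, C3 from -0.223 to 0.667, Cd83 from -0.0345 to 0.373, Dgkz from -0.328 to 0.0217, Rps4x from -0.0065 to 0.0952 and Serpina3n from -0.0913 to 0.152. In the 4 Xist libraries C3 was at -0.49 and Serpina3n at -0.19. The cause was not tested.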
